A study of Mus musculus with 2 samples.

Results

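The genes described here are the ligands and receptors of the VEGF and angiopoietin pathways, 10 of the 21839 protein-coding genes of GENCODE release M21. They are the ligands Vegfa, Vegfc, Angpt1 and Angpt2, the receptor tyrosine kinases Kdr, Flt1, Flt4, Tek and Tie1, and the co-receptor Nrp1. The members were chosen as a gene list by function and not from their DNase signal, though with earlier results of these data known. A locus is the gene with 50 kb on either side, and every DNase I hypersensitive site (DHS) touching it was taken from the longer of the 2 peak lists deposited for each library. This gave 141 of 130945 DHSs in replicate 1 and 148 of 157786 in replicate 2. DNase-seq finds stretches of chromatin open to cutting by the nuclease DNase I, as promoters and enhancers in use usually are. The libraries came from the adrenal glands of 2 male B6CASTF1/J mice (a first-generation cross of C57BL/6J and CAST/EiJ) aged 25 days, 1 library per animal. Both animals belong to a single group of 1 genotype, age and sex, so no test between conditions is possible. The labels number the animals apart and name them as biological replicates, yet give both the same donor code, so the spread between them may be partly technical.

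VEGF-A binds the receptors encoded by Kdr and Flt1 on endothelial cells and drives the growth and permeability of blood vessels, while VEGF-C binds the receptor encoded by Flt4 and drives lymphatic growth. Angiopoietin-1 activates the receptor encoded by Tek (TIE2) and steadies mature vessels, angiopoietin-2 acts on the same receptor in a context-dependent way, and the related receptor encoded by Tie1 tunes TEK signalling. The adrenal cortex is among the most densely vascularised of tissues, with fenestrated capillaries beside its steroid-making cells, which are a known source of VEGF-A.

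The tissue and its other cell types were checked by the promoters of marker genes, called open where a DHS came within 1 kb of a protein-coding start of the gene. All 5 adrenocortical markers were open in both libraries, with summed heights of 31.6 in replicate 1 and 15.8 in replicate 2. Single heights ran from 0.458 to 9.01 in replicate 1 and from 0.666 to 5.26 in replicate 2, with Mc2r the lowest in each. The chromaffin markers Th, Dbh and Chga were open in both, at 1.05 to 5.67 in replicate 1 and 0.799 to 2.48 in replicate 2. Of the 7 endothelial markers, 7 were open in replicate 1 and 6 in replicate 2. Their heights were low, from 0.550 to 1.66 in replicate 1 and from 0.542 to 2.23 in replicate 2, and their sums were close, at 8.09 and 7.80. Pericyte markers numbered 5 and 4 of 5 open, lymphatic endothelial markers 3 and 2 of 3, and macrophage markers 0 of 4 in both. Lymphocyte markers differed between the libraries, with 1 of 4 open and a summed height of 0.500 in replicate 1 against 4 of 4 and 6.17 in replicate 2, and their part in the results below was not tested. In bulk tissue, fewer cells of a type and less open chromatin per cell cannot be told apart.

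The sequences below are the strongest promoter DHS of Vegfa, Vegfc and Kdr, and the strongest distal DHS shared by both libraries at each locus that holds one free of untranslated sequence and under 300 bp. Strongest here means of highest mean height over both libraries, so a printed DHS need not be the highest in each library. Distal means over 1 kb from any protein-coding start. The printed DHSs are among the open elements whose heights are described below. Each is named by the distance of its centre from the gene's 5′ end in the direction of transcription, with minus for upstream, and is printed from the plus strand of mm10 (GRCm38.p6, the C57BL/6J reference, so the CAST/EiJ allele may differ). The Kdr promoter is printed only upstream of the gene's 5′ end. Capitals mark bases inside a deposited footprint, a short stretch protected from cutting within a DHS, in either library.

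Vegfa at -511 bp, chr17:46032801-46032960: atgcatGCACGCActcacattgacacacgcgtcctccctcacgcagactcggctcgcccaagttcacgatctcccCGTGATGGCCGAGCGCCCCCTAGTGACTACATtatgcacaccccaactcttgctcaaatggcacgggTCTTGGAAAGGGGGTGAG
Vegfc at -436 bp, chr8:54077081-54077260: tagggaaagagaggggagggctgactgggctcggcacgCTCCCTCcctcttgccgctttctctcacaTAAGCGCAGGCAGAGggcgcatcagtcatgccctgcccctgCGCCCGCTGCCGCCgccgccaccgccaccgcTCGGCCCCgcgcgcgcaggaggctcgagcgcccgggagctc
Kdr at -72 bp, chr5:75978459-75978640: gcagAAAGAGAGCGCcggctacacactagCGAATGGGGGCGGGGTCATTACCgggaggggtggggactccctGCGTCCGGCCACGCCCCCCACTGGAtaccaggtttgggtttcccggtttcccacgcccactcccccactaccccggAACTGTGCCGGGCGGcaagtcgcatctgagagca
Vegfa at +4569 bp, in intron 2, chr17:46027701-46027900: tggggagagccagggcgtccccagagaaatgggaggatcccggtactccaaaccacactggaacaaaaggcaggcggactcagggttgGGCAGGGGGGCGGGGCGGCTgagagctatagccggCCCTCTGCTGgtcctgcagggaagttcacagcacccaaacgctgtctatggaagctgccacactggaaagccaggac
Vegfc at +75834 bp, in intron 1, chr8:54153361-54153520: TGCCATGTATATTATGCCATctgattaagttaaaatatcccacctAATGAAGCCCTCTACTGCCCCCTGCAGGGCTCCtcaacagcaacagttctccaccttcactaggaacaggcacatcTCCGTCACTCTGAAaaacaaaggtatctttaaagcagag
Angpt1 at +1987 bp, in intron 1, chr15:42674881-42675100: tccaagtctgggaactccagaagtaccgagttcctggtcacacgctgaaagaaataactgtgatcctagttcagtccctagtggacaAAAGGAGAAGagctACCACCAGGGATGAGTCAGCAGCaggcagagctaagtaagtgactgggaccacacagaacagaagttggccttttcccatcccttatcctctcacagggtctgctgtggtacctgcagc
Angpt2 at -34788 bp, chr8:18776241-18776460: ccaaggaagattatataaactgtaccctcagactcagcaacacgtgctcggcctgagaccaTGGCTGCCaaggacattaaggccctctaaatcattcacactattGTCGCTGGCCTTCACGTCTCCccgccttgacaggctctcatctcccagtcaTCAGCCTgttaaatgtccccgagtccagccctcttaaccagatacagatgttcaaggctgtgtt
Kdr at -2222 bp, chr5:75980601-75980760: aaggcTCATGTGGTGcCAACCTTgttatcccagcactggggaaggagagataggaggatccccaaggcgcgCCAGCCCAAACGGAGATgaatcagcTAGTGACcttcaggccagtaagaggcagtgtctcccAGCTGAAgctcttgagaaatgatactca
Flt1 at +141861 bp, in intron 20, chr5:147584081-147584220: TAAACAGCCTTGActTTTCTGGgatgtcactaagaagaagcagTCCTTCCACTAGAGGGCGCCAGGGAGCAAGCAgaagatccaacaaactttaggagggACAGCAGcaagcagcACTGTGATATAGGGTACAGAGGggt
Flt4 at +43677 bp, just past the gene's 3′ end, chr11:49652861-49653020: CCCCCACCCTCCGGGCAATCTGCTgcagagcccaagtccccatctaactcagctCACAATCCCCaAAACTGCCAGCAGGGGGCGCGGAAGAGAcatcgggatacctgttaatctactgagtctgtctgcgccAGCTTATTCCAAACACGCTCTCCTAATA
Tek at +7451 bp, in intron 1, chr4:94746661-94746820: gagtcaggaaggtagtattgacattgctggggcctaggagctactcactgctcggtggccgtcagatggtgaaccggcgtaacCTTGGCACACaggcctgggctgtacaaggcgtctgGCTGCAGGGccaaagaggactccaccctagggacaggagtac
Nrp1 at +4826 bp, with its first 53 bases in an exon and the rest in intron 2, chr8:128363341-128363520: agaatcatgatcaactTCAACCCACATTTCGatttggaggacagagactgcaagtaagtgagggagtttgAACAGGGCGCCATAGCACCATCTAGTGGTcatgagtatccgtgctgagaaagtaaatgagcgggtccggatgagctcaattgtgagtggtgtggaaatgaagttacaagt

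Promoters were compared first, to see which of the 10 genes had open chromatin at their starts in both animals. Open promoters were found for 8 of the 10 genes in replicate 1, 9 in replicate 2 and 8 in both, against 69.4%, 69.1% and 65.8% of all protein-coding genes. In the shorter deposited list, which is stricter but not a cut on height alone, 8 were open in each library. Over all genes the shares were 65.3% and 61.9%. The 8 were Vegfa, Vegfc, Angpt1, Kdr, Flt1, Flt4, Tie1 and Nrp1. Tek was open in replicate 2 alone and outside its shorter list, and Angpt2 was open in neither.

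The heights of these promoters were low beside other open genes. Height is the deposited signal value of a DHS, scaled to library size, and for a gene it is that of its strongest promoter DHS. The median over all open genes was 8.85 in replicate 1 and 6.25 in replicate 2. Only the Vegfa promoter lay above that median in both libraries.

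**Figure D1:**
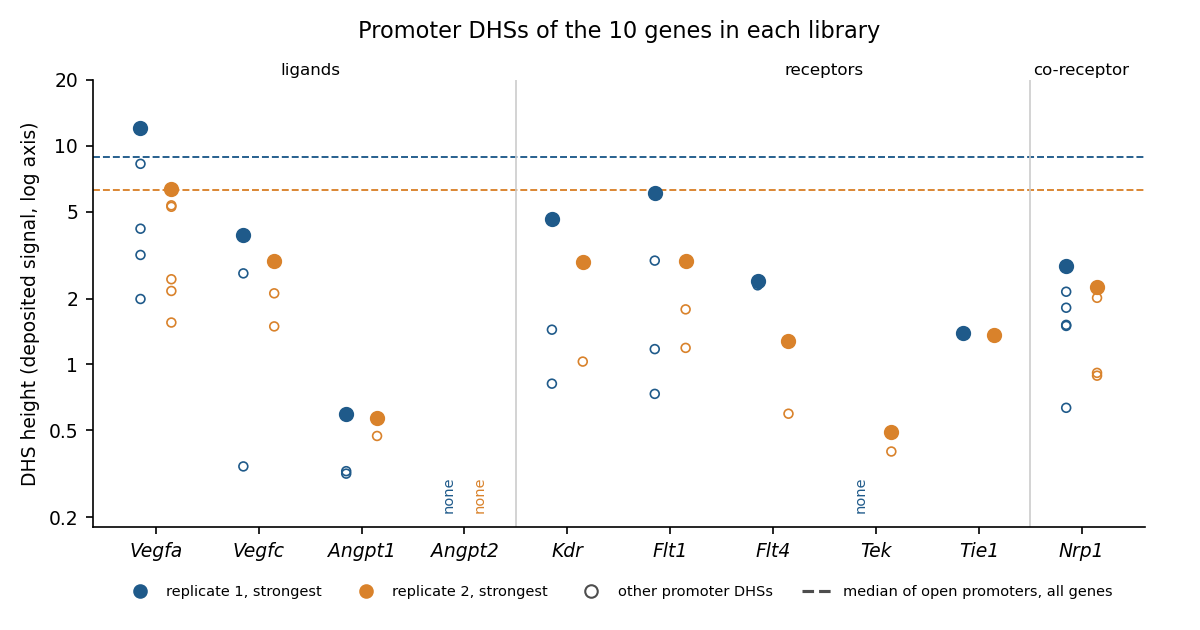
Height of every promoter DHS of the 10 genes (log axis) in replicate 1 and replicate 2, with the strongest filled, the others open and the median of all open promoters dashed. Vegfa reached 12.1 and 6.32, Angpt1 stayed under 0.6 in both, Tek had a DHS in replicate 2 alone and Angpt2 had none.

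Among the ligands, Vegfa (ENSMUSG00000023951.17, chr17:46016993-46032369, minus strand) had the highest promoter, at 12.1 in replicate 1 and 6.32 in replicate 2. These lay at percentiles 63.7 and 50.4 of open promoters. The 2 libraries put their maximum at different DHSs. In replicate 1 the DHS at -31 bp measured 12.1 and the one at -511 bp 11.9, and in replicate 2 their partners measured 5.34 and 6.32. Vegfa had 6 promoter DHSs in each library, all of them shared, spread over the region of its 4 annotated protein-coding starts. The one at +1319 bp, in intron 1, measured 8.27 and 5.26.

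Vegfc (ENSMUSG00000031520.6, chr8:54077606-54187096, plus strand) had a strongest promoter DHS of 3.91 and 2.97 at -436 bp, at percentiles 27.5 and 30.2. A second promoter DHS over its first exon measured 2.61 and 2.11. These values were closer between the libraries than those of the 2 strongest Vegfa DHSs.

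The angiopoietin ligands had little or no open promoter chromatin. Angpt1 (ENSMUSG00000022309.9, chr15:42424723-42676977, minus strand) measured 0.592 and 0.569, at percentiles 4.24 and 5.23. Both values belong to 1 shared DHS near +627 bp in exon 1, which was in the shorter list of each library. Angpt2 (ENSMUSG00000031465.6, chr8:18690263-18741562, minus strand) had no promoter DHS, and its promoter window held no stretch at an FDR of 0.05 or less in either library. Its nearest DHS was centred at +14908 bp in replicate 1 and at -23487 bp in replicate 2, so the nearest sites lay on opposite sides of the start.

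Among the VEGF receptors, Flt1 (ENSMUSG00000029648.13, chr5:147561604-147726011, minus strand) encodes VEGFR1, which binds VEGF-A tightly and signals weakly. Its strongest promoter DHS, at +251 bp in exon 1, measured 6.05 and 2.97, at percentiles 37.0 and 30.2. Kdr (ENSMUSG00000062960.10, chr5:75932827-75978458, minus strand) encodes VEGFR2, the main signalling receptor for VEGF-A. Its promoter measured 4.64 and 2.93, at percentiles 30.8 and 30.1. Flt4 (ENSMUSG00000020357.3, chr11:49609263-49652739, plus strand) encodes VEGFR3. Its promoter DHSs at +447 bp and +1027 bp measured 2.40 and 2.30 in replicate 1, and 1.28 and 1.25 in replicate 2. The order Flt1, Kdr, Flt4 held in both libraries, but in replicate 2 Flt1 and Kdr were 2.97 and 2.93, so their order rests on replicate 1.

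The TIE receptors had 1 weak promoter DHS or none in replicate 1. Tie1 (ENSMUSG00000033191.14, chr4:118471191-118490061, minus strand) had 1 promoter DHS, at 1.39 and 1.37, nearly the same height in both animals. Tek (ENSMUSG00000006386.15, chr4:94739289-94874976, plus strand) had none in replicate 1. In replicate 2 it had a pair of narrow ones, at 0.489 and 0.400, and the lowest FDR in its promoter window was 0.0320. The stronger was 55 steps high, a step being the smallest increment of the height scale in that library, against 712 steps for Vegfa. In replicate 1 the Tek promoter window held no stretch at an FDR of 0.05 or less.

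Nrp1 (ENSMUSG00000025810.9, chr8:128358604-128503363, plus strand) encodes neuropilin-1, a co-receptor that binds VEGF-A and class 3 semaphorins. Its strongest promoter DHS measured 2.82 in replicate 1, at -394 bp, and 2.27 in replicate 2, near +526 bp. Both DHSs were present in both libraries, at 2.82 and 2.02 for the first and at 2.15 and 2.27 for the second. The rank of the Nrp1 promoter DHSs among themselves therefore changed between the animals.

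Base composition at the starts varied with these heights. The CpG observed over expected ratio in the 1 kb around the 5′ end was 0.696 for Vegfa, 0.868 for Vegfc, 0.811 for Flt1, 0.805 for Flt4, 0.665 for Kdr and 0.577 for Nrp1, all above the median of 0.552 over all genes. It was 0.538 for Angpt1, 0.335 for Angpt2, 0.330 for Tie1 and 0.317 for Tek. In replicate 1 the 4 genes under the median were those with the lowest promoter heights or none. In replicate 2 the same held except that Flt4 (1.28) was below Tie1 (1.37). This is a description over 10 genes chosen by function, and no test was made.

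The DHSs of each locus were then counted, to see where open chromatin lay beyond the starts. Of the 141 and 148 DHSs, 28 and 26 were at a promoter of the member itself, 4 and 4 at a neighbour's promoter, and 109 and 118 were distal. Of the distal ones, 57 and 64 were within the gene. Per 100 kb the member loci had medians of 6.76 and 6.52 DHSs, against 8.16 and 8.39 over all genes. In each library 4 of the 10 loci were above the median of all genes.

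**Figure D2:**
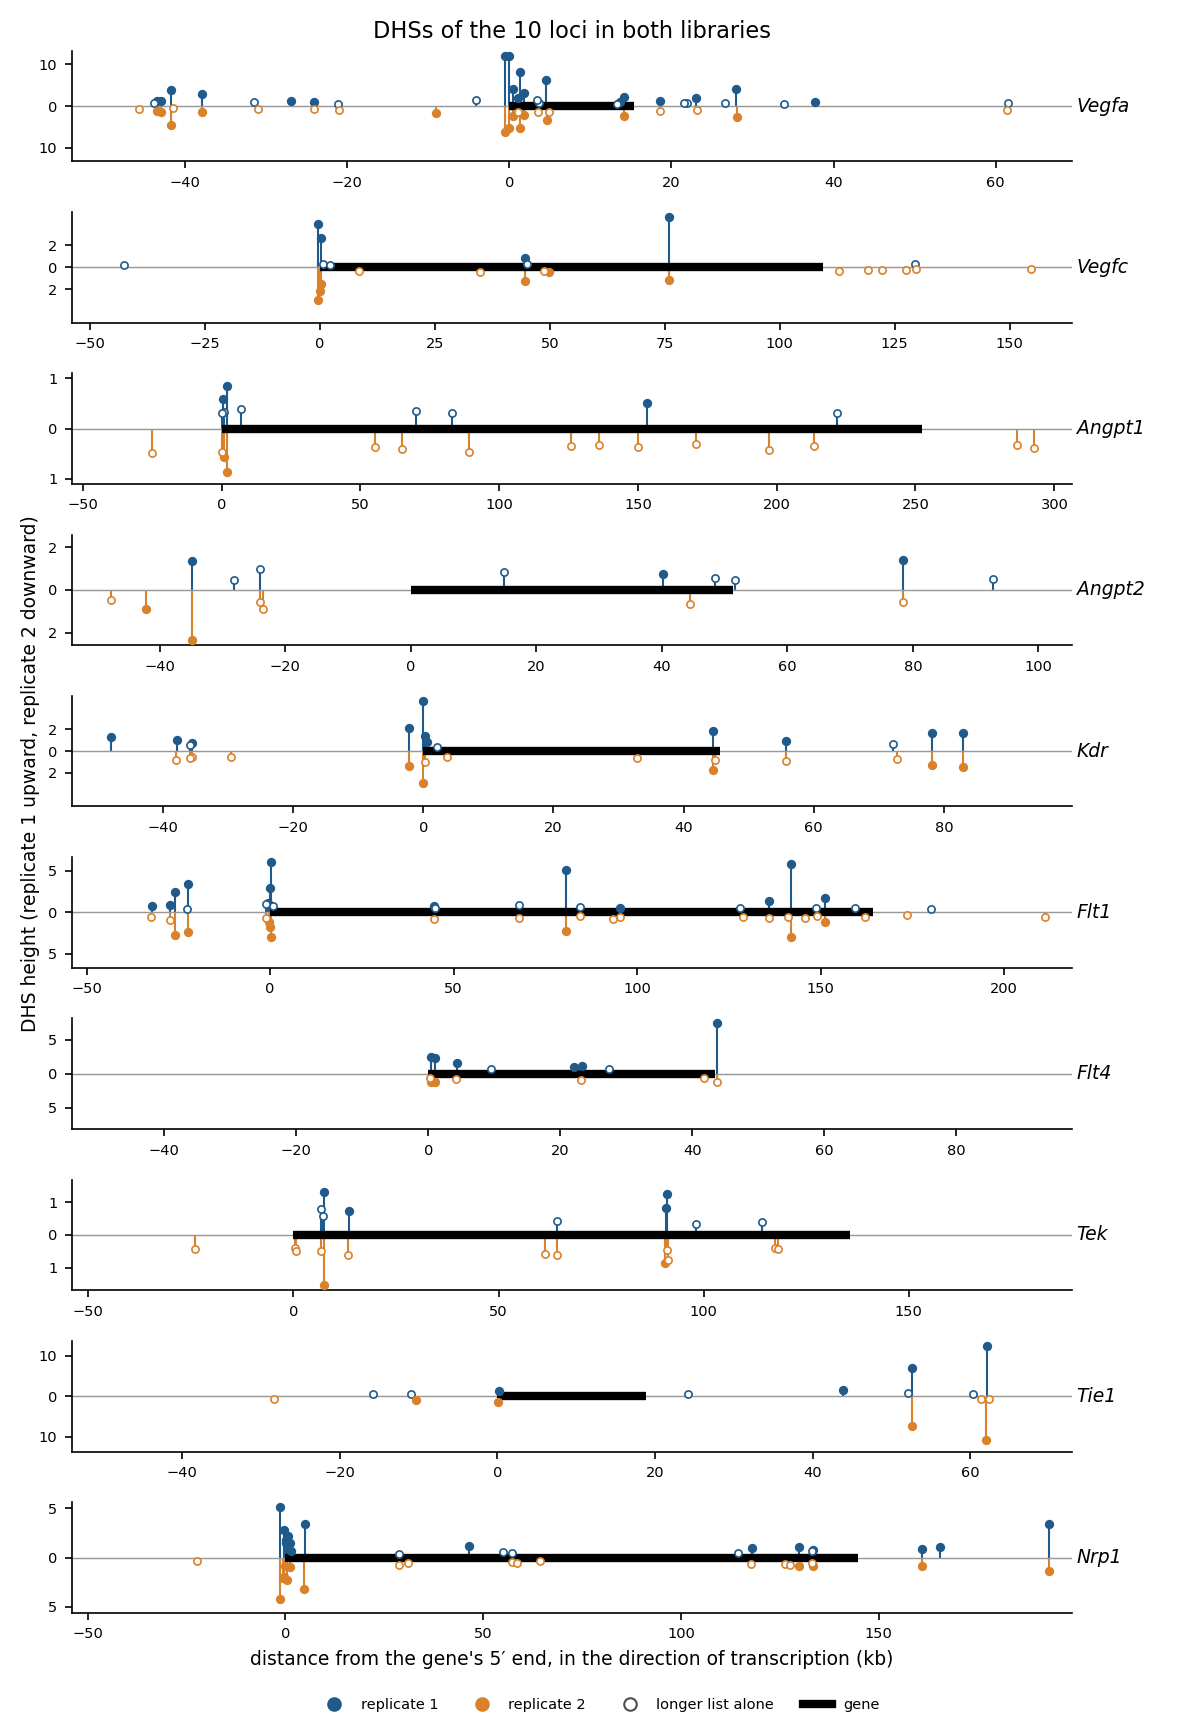
DHSs of each locus by distance of their centre from the gene's 5′ end (kb), with height upward for replicate 1 and downward for replicate 2, each panel on its own height scale. Filled points are also in the shorter list and the black bar is the gene. Vegfa is the most crowded locus and Angpt1 holds no DHS above 0.9 in either library.

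The Vegfa locus was the densest, with 31 and 24 DHSs, or 26.9 and 20.8 per 100 kb, although the gene spans only 15.4 kb. Its 3 strongest shared distal DHSs lay on different sides of the gene. The one at +4569 bp in intron 2 measured 6.37 and 3.45, the one at -41761 bp measured 3.87 and 4.64, and the one at +28009 bp, past the 3′ end, measured 3.99 and 2.56. The upstream site was higher in replicate 2, by 0.26 on the log2 scale, and the other 2 were lower. The DHS at -41761 bp has shared neighbours at -42951 bp (1.17 and 1.38) and -43531 bp (1.21 and 1.25), and these were slightly higher in replicate 2 too. Closer to the gene, the shared DHSs at -37901 bp (2.80 and 1.33) and -24171 bp (1.06 and 0.817) were lower in replicate 2, and the one at -21163 bp was higher, by 0.70 on the log2 scale, so the upstream sites did not move one way.

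Vegfc had 9 and 15 DHSs over a gene of 109 kb, and only 2 distal ones were shared. Both lie in its long intron 1. The one at +75834 bp measured 4.54 in replicate 1, above the gene's promoter there, and 1.12 in replicate 2. The one at +44494 bp went the other way, at 0.858 and 1.28. The remaining distal DHSs of the Vegfc locus were found in 1 library each, and the strongest of them measured 0.400.

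At Kdr, 14 and 15 DHSs were found and 8 distal ones were shared. The strongest by mean was at +44558 bp, over the last exon, at 1.82 and 1.78. The next was at -2222 bp, at 2.16 and 1.35, and the next at +82948 bp, past the 3′ end, at 1.67 and 1.42. No distal DHS in the first intron of Kdr was shared. That intron had a DHS of 0.350 at +2129 bp in replicate 1 and another of 0.560 at +3658 bp in replicate 2.

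Flt1 had 23 and 24 DHSs, of which 14 distal ones were shared, more than at any other locus of the 10. The strongest was at +141861 bp in intron 20, at 5.81 and 2.99, close to the gene's own promoter in both libraries. It was followed by a DHS at +80581 bp in intron 12, at 5.09 and 2.25, and by one at -22349 bp, at 3.37 and 2.30. A nearby upstream DHS at -25839 bp measured 2.47 and 2.71.

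Flt4 had 8 and 7 DHSs. The DHS at +43677 bp measured 7.35 in replicate 1 and 1.15 in replicate 2, a ratio of 6.41. In replicate 1 it was above the Flt4 promoter (2.40) and in replicate 2 below it (1.28). The intronic DHSs at +4297 bp and +23227 bp were closer, at 1.50 and 0.826 and at 1.19 and 0.879. No DHS was found on the 5′ side of Flt4 in either library.

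Angpt1, the longest of the genes at 252 kb, had 9 and 15 DHSs, or 2.55 and 4.26 per 100 kb, the lowest density of the 10 loci in each library. Only 1 distal DHS was shared, at +1987 bp in intron 1, at 0.842 and 0.871. It was the highest DHS of the locus in both libraries, above the promoter.

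Angpt2 lies within the gene Mcph1, which also contains its 3 shared DHSs, so these cannot be assigned to either gene from these data. It had 9 and 7 DHSs, of which those 3 were shared. The one at -34788 bp measured 1.35 and 2.35 and was thus 0.80 higher in replicate 2 on the log2 scale. The one at +78502 bp went the other way, at 1.40 and 0.569. The last, at -24052 bp, measured 0.992 and 0.586.

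At Tek, 9 and 13 DHSs were found, and 6 distal ones were shared although the promoter was barely detected. The strongest was in intron 1, at +7451 bp, at 1.32 and 1.54, and it was in the shorter list of both libraries. A further pair lay at +90951 bp (1.24 and 0.471) and at +90711 bp (0.833 and 0.862). The first of these was lower in replicate 2 while its neighbour was level.

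The Tie1 locus had 9 and 7 DHSs, and 4 of each were promoters of the neighbours Elovl1 and Cdc20, the strongest at 12.4 and 10.8. No distal DHS was shared there. The strongest distal site was at +43821 bp in replicate 1 (1.43) and at -10299 bp in replicate 2 (1.00). The second of these touched a stretch at an FDR of 0.05 or less in replicate 1.

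Nrp1 had 20 and 21 DHSs, with 10 distal ones shared. The strongest was upstream of the gene's 5′ end, at -1304 bp, at 5.12 and 4.22, higher than any DHS in the promoter window. The next, at +4826 bp and centred in intron 2, measured 3.47 and 3.18, and the one at +192976 bp, past the 3′ end, 3.45 and 1.38. The 2 sites nearer the 5′ end were close in height between animals and the far one was not. The strongest DHS of all loci found in replicate 2 alone was also at Nrp1, at -644 bp and 2.07, over 1 kb from the only annotated protein-coding start. That start lies downstream of the gene's 5′ end, from which distances are counted. The DHS at -644 bp touched a stretch at an FDR of 0.05 or less in replicate 1. The strongest DHS found in replicate 1 alone was at Vegfa, at -4178 bp and 1.55.

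Sharing between the animals was then measured over the distal DHSs, counting an overlap of 1 bp or more. In replicate 1, 60 of 109 (55.0%, 95% Wilson interval 45.7 to 64.1%) were found in replicate 2, against 56.3% of all distal DHSs. In replicate 2, 60 of 118 (50.8%, 41.9 to 59.7%) were found in replicate 1, against 44.5% of all. Of the promoter DHSs of the 10 genes 82.1% and 88.5% were shared, against 80.9% and 81.1% of all promoter DHSs. In the shorter list were 51.4% and 28.0% of the distal DHSs, against 55.1% and 32.5% of all. The intervals cover counting error only, and the values for all distal DHSs lie within them.

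Sharing was higher in the classes of greater height, in these loci and over all distal DHSs. The DHSs of each library were divided by height into 3 classes of equal number, low, middle and high. In replicate 1, 9 of 41 distal DHSs of the low class were shared, 32 of 49 of the middle class and 19 of 19 of the high class. Over all distal DHSs the shares were 27.7%, 62.1% and 94.0%. In replicate 2 the counts were 7 of 38, 27 of 51 and 26 of 29, against 9.89%, 51.6% and 92.6% of all. Of the unshared ones, 2 of 49 in replicate 1 and 4 of 58 in replicate 2 touched a stretch at an FDR of 0.05 or less in the other library (4.08% and 6.90%, against 7.26% and 3.45% of all unshared distal DHSs). None of the distal DHSs found in replicate 1 alone, and 3 of the 58 in replicate 2, were of the high class.

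**Figure D3:**
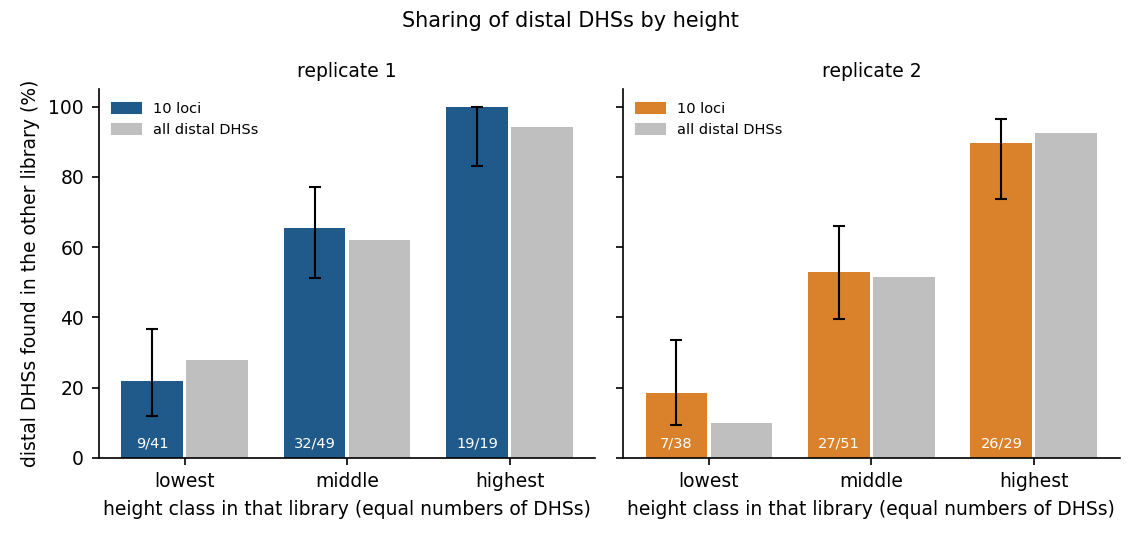
Percentage of distal DHSs found in the other library, by height class, for the 10 loci (coloured, with counts and 95% Wilson intervals) and for all distal DHSs (grey). Sharing rises with height in the 10 loci, from 22.0% to 100% in replicate 1 and from 18.4% to 89.7% in replicate 2, and over all distal DHSs, from 27.7% to 94.0% and from 9.89% to 92.6%.

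Heights of DHSs found in both animals were compared pair by pair. Over the 85 pairs of the 10 loci, the median log2 ratio of replicate 2 to replicate 1 was -0.37, against -0.34 over all 81485 pairs, and 61 pairs were lower in replicate 2. A lean of this size is seen over all pairs, and over all distal pairs it changed with height in replicate 1, as given below. Relative to the median of all pairs, 44 were lower and 41 higher, and dividing heights by the median height of shared DHSs turned the median ratio to 0.0426. The 23 promoter pairs had a median of -0.65, against -0.41 over all promoter pairs, and the 60 distal pairs -0.29, against -0.29. At Nrp1 the replicate 1 DHSs at +136 bp and +46 bp overlap each other and share 1 partner, so that site enters more than once. By locus the medians ran from -0.88 at Flt4, where all 5 pairs were lower in replicate 2, to 0.05 at Angpt1, with 3 pairs.

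**Figure D4:**
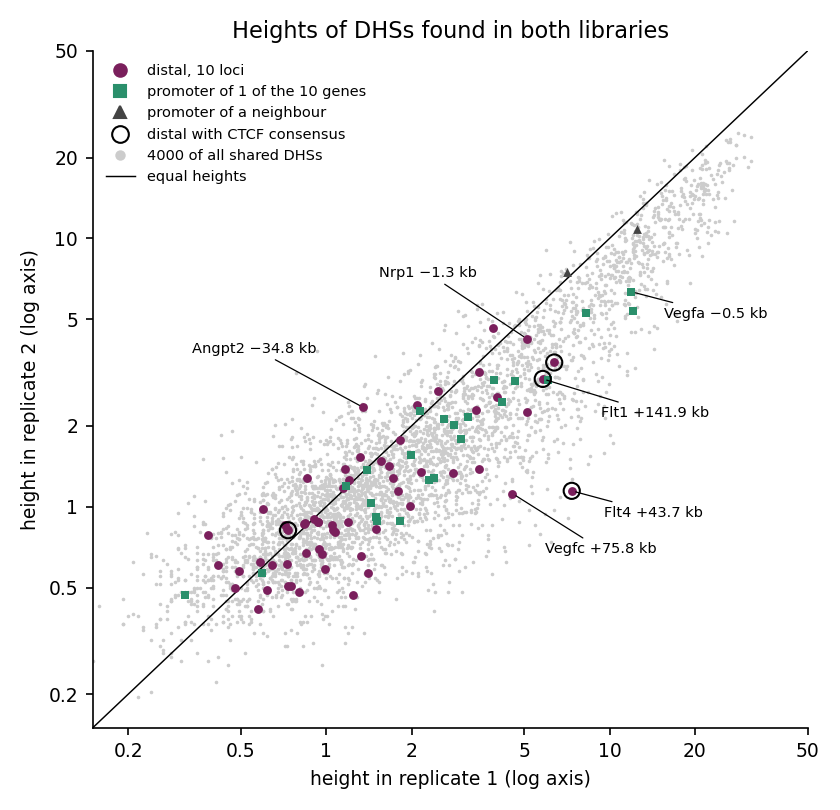
Height in replicate 2 against height in replicate 1 (log axes) for each DHS of the 10 loci found in both, over 4000 randomly drawn pairs of all DHSs (grey) and the line of equal heights. The DHS just past Flt4 (7.35 and 1.15) and the one in intron 1 of Vegfc (4.54 and 1.12) lie farthest below the line.

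A few single sites had ratios far from these medians. The DHS past Flt4 had a log2 ratio of -2.68, and 0.177% of all distal pairs were as low or lower. The DHS in intron 1 of Vegfc had -2.02, with 1.99% as low or lower. In the other direction the weak DHS at +28798 bp of Nrp1 measured 0.383 and 0.782, and the site upstream of Angpt2 had a ratio of 0.80. These sites were picked for their values and carry no test. Each rests on 1 animal per value.

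The Flt4 site holds the consensus searched for CTCF, a zinc-finger protein that marks insulators and loop anchors, so such sites were examined further. The consensus is CCANNAGNNGGC, on either strand and within the central 150 bp. Over all distal pairs, the median log2 ratio was -1.01 for the 7049 with the consensus and -0.22 for the 48999 without. Among those above a height of 3 in replicate 1 it was -1.34 against -0.84. From 1 to 3 it was -0.82 against -0.37, and up to 1 it was 0.02 against 0.22. The ratio thus fell with height in replicate 1, with the consensus and without. That height is also the denominator of the ratio, so the grouping can by itself give such a fall. Whether the libraries differ more at high sites was not tested. In the 10 loci 4 of 60 distal pairs held the consensus (6.67%), against 12.6% of all distal pairs. They are the sites past Flt4, in intron 20 of Flt1, in intron 2 of Vegfa (-0.89) and at +133309 bp of Nrp1 (0.733 and 0.817). A footprint covered all 12 bases of the consensus in both libraries at Flt4 and at Flt1. At Vegfa footprints covered 8 of the 12 in replicate 1 and 10 in replicate 2. Among pairs with the consensus and a height above 3 in replicate 1, the quartiles were -1.73 and -0.98. The Flt1 site, at -0.96, lay just above the upper quartile and the Flt4 site, at -2.68, below the lower one. The Vegfc site differs from the consensus by 1 letter, as do 18 of the 60 distal pairs (30.0%) and 24.7% of all distal pairs. Those 18 had a median of -0.42, against -0.47 over all such pairs, and the 38 that differ by more had -0.16, against -0.14. Among all distal pairs 1 letter off and above a height of 3 in replicate 1, the median was lower, at -1.11. The quartiles there were -1.56 and -0.66, and the Vegfc site, at -2.02, lay below the lower one. A match to these letters is a description and does not show that the protein was bound.

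Footprints were then counted. Of the distal DHSs, 74.3% in replicate 1 and 65.3% in replicate 2 held at least 1, against 77.6% and 61.6% of all distal DHSs. Promoter DHSs held one in 89.3% and 69.2%, against 77.8% and 69.0%. The deposited footprints numbered 272597 in replicate 1 and 184847 in replicate 2. In the printed sequences the 2 libraries marked different amounts. At the Flt4 site 90 of 160 bases were in footprints in replicate 1 and 13 in replicate 2, all of the latter within the former. At Vegfc +75834 bp, which like the Flt4 site was higher in replicate 1, the counts were 67 and 19. At Tek +7451 bp they were 0 and 19. At Angpt2 -34788 bp they were 36 and 0, although the site was higher in replicate 2.

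Short consensus sequences, some of them linked with endothelial enhancers, were searched in the central 150 bp of each DHS, on both strands. The ETS form CAGGAAG, the core of a factor family active in endothelial cells, was found in 16 of 109 distal DHSs (14.7%) in replicate 1 and 12 of 118 (10.2%) in replicate 2. Over all distal DHSs it was in 8.79% and 8.75%. In promoter DHSs CAGGAAG was in 1 of 28 and 1 of 26 (3.57% and 3.85%), against 6.20% and 6.86% of all promoter DHSs. The other ETS form, CCGGAAG, was in 1 distal DHS of each library (0.917% and 0.847%), against 1.49% and 1.37% of all. CCGGAAG was in 0 of 28 and 0 of 26 promoter DHSs, against 7.29% and 7.64% of all promoter DHSs. Counts this small do not allow a comparison. The SOX letters ACAATG were in 10.1% and 11.0%, against 6.15% and 6.83% of all. The AP-1 letters TGANTCA were in 12.8% and 8.47%, against 13.5% and 11.2%. The letters AGATAA were in 4.59% and 5.08%, against 5.11% and 5.98%. The TEAD letters GGAATG were in 5.50% and 6.78%, against 9.16% and 9.23%. The forkhead letters GTAAACA were in 2.75% and 1.69%, against 1.52% and 1.56%. The SF-1 letters CAAGGTCA were in 2.75% and 1.69%, against 3.17% and 2.67%. At Angpt1 +1987 bp, an AP-1 match at bases 113 to 119 of the printed sequence lay wholly inside a footprint in replicate 1. In replicate 2, 0 of its bases were in a footprint. The AP-1 match at Kdr -2222 bp, at bases 88 to 94, had 1 base in a footprint in replicate 1 and 0 in replicate 2. In the Tek intron 1 DHS, the ETS letters are at bases 5 to 11 of the printed sequence, outside any footprint in both libraries.

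At promoters, the GC box GGGCGG was in 28.6% and 34.6% of the DHSs of the 10 genes, against 44.3% and 42.9% of all promoter DHSs. In the Kdr promoter a GC box at bases 37 to 42 of the printed sequence was inside a footprint in both libraries. Another, at bases 158 to 163, was inside a footprint in replicate 2 and outside any in replicate 1. The letters TACGTG, a form of the site bound by hypoxia-inducible factors, were in 3 of 28 promoter DHSs in replicate 1 and 2 of 26 in replicate 2. They lay in the Vegfa DHS at +1319 bp in both libraries, and in Nrp1 DHSs at -394 bp in both and +136 bp in replicate 1. Over all promoter DHSs the share was 1.69% and 1.66%. With so few DHSs these shares are counts of single sites. No match was found in the printed Vegfa promoter sequence, which says only that these letters are not in that window.

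A list of 16 other genes of the pathways was chosen by function. Of these, 16 were open in replicate 1 and 15 in replicate 2, against 69.4% and 69.1% of all protein-coding genes. In the shorter list 15 and 13 were open, against 65.3% and 61.9%. Plxnd1, a semaphorin receptor of endothelium, was the highest, at 22.2 and 11.7. Nrp2, the co-receptor for VEGF-C, measured 7.23 and 4.86. The ligand gene Vegfb measured 6.28 and 4.02. The angiopoietin gene Angpt4 had a promoter DHS of 0.725 in replicate 1 alone. The list's median heights over open genes were 3.62 and 2.27, against 3.36 and 2.27 for the 10 genes.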

How the data were processed

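DNase-seq libraries of the adrenal glands of 2 mice were analysed, 1 per animal. All files are in mm10, per the labels, and were made by the authors from each library's own reads. For the aligner and the callers, names and versions were not given in the sources used here. The deposited peak lists hold a height per DHS, a signal value that the authors scaled: all heights were whole multiples of 1 step (0.00833 and 0.00888), within 0.01 of a step, which, if a height is in CPM, puts the depths at 120.0 and 112.6 M (inferred). A further deposited list gives FDRs (q-values) along the genome, in stretches at an FDR of at most 0.05, and the deposited footprints carry 1 common FDR threshold and no value of their own. The longer list was used throughout, and the shorter one (81558 and 65480 DHSs) as a stricter alternative.

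The members, gene lists and consensus sequences were chosen with earlier results of these data known. All 10 genes are named, with each locus's promoter DHSs of note, the 3 shared distal DHSs of highest mean height and, per library, the strongest DHS found there alone. Up to 4 pathway genes are named. One marker gene is not reported here. The closer look at the CTCF consensus, the sites singled out for their ratio, and the matches 1 letter off were chosen after the values were seen. A pair is a replicate 1 DHS and the replicate 2 DHS it overlaps most. Exon and intron numbers refer to the protein-coding transcript of greatest exon length. The consensus letters searched also included GTAAACA for the forkhead (FOX) factors, AGATAA for the family named after that core and GGAATG for the TEAD factors. CAAGGTCA for the nuclear receptor SF-1 and the palindromic NFI site were the others, so that 12 motifs were searched. In palindromic or overlapping cases a DHS was counted once per motif. No test was possible, with 1 group. Overlap counting was tested on simulated intervals. Python 3.11.15, pandas 2.3.3, numpy 2.4.6, statsmodels 0.14.6, Biopython 1.88, bedtools 2.31.1 and matplotlib 3.10.9 were used.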

Additional observations from a re-analysis of the deposited data

How the results depend on the processing

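Promoters open in both libraries numbered 8 under windows of 500 bp and 2 kb, with the gene's 5′ end alone and in the shorter list, 6 among the 50000 strongest DHSs of each library, and 8 to 9 in single libraries. The mean count of DHSs in the 10 loci, 144.5, fell to 83.5 with the gene body alone, 68.5 in the shorter list and 46.5 among the 50000 strongest, as fewer DHSs then enter, and was 141 to 148 with 1 library left out. The mean shared percentage of distal DHSs, 53.0%, was 42.4% when an overlap of at least 50% of each DHS was required. It was 67.4% between the shorter lists, where fewer DHSs enter, and 50.8 to 55.0% in single libraries. The mean percentage in the shorter list, 47.7%, was 37.2% to 58.2% in single libraries. The median log2 ratio of pairs, -0.37, changed sign to 0.0426 with heights divided by the median height of shared DHSs. With heights divided by their sum it was 0.0228. Both divide out the difference in level between the libraries, but not any change of the ratio with height in replicate 1, its denominator. The median ratio was -0.36 without the pairs holding the CTCF consensus, an alternative chosen after seeing the data. No paired analysis was possible because both libraries belong to 1 group. How far depth limits the weak DHSs, such as those at Tek and Angpt1, was not tested.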
